A study of Mus musculus with 38 samples.

Results

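Reporter-positive cells were sorted from the back skin of mice heterozygous for the P95H mutation of Srsf2 and of control mice, in both cases after 3 injections of tamoxifen and 20 weeks of DMBA/TPA. The labels give 3 numbered mice per group, 1 RNA library each, so 6 of the 38 libraries of the series are described here, called P95H het and ctr. The labels do not state the Cre driver, the allele the controls carry, the sex and age of these mice, the reporter sorted on, and whether cells came from tumours or from the skin between them. The whole-skin libraries of the series list Krt14CreER, a tamoxifen-activated recombinase of keratin 14-expressing cells, and tdTomato, a red fluorescent reporter. Both groups received tamoxifen and DMBA/TPA. Of 49585 listed genes, 14914 had a mean of at least 10 normalised counts over the 6 libraries and were tested. For single genes, other experiments of the series are set beside this one. These are reporter-positive cells of SRSF2-KO and ctr mice after 10 days of 4-hydroxytamoxifen (3 each), and whole back skin of Cre-positive SRSF2-P95H and Cre-negative ctr mice, both with the SRSF2 MUT allele label, at 28 days of the same agent (4 and 3), neither with DMBA/TPA.

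SRSF2 is an SR protein, one of a family that binds exons of nascent transcripts and recruits the spliceosome, and it also acts in the release of paused RNA polymerase. The P95H change lies beside its RNA-binding domain and, in human blood cells, where it recurs in myeloid cancers, alters which exonic sequences the protein prefers. In the DMBA/TPA protocol, a mutagen given to mouse skin starts clones that often carry an activated Hras, and repeated phorbol ester, an activator of protein kinase C, drives their growth through growth factor signalling and the transcription factor AP-1, so that papillomas form. The comparison asks which transcripts differ between P95H het and ctr cells at the end of this protocol.

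The libraries held 11280198, 15274360 and 15502125 reads in P95H het cells and 10977763, 14957572 and 17239256 in ctr cells. Srsf2 itself had 4018, 3863 and 4497 normalised counts in P95H het cells, against 4734, 4222 and 4170.0 in ctr cells. The ranges overlapped, with a log2 difference of -0.09 ± 0.10 (limma adjusted p = 0.697), and a count per gene does not show which allele a transcript came from. Keratinocyte markers were at the levels of a keratinocyte sort: Krt5 had 116247, 123905 and 97964 normalised counts in P95H het cells, against 107124, 112245 and 125949 in ctr cells, and Krt14, its partner in basal cells, 80605, 91931 and 80041 normalised counts in P95H het cells, against 87142, 92028 and 105318 in ctr cells. Genes of most other cell types were low. Of the markers listed for each type, 11 of 22 for fibroblasts, 5 of 22 for macrophages and dendritic cells, 3 of 15 for endothelium, 5 of 20 for muscle, 7 of 18 for adipocytes, 5 of 11 for melanocytes, 4 of 16 for T and NK cells, 4 of 16 for neutrophils and mast cells, 2 of 10 for Merkel cells and nerve, and 0 of 5 for red cells reached the mean of 10. Hba-a1, a haemoglobin gene, was at 0 in all 6 libraries, but the 5 red cell markers together summed to 3.7, 4.32 and 8.57 normalised counts in P95H het cells, against 0, 31.6 and 18.1 in ctr cells. The exception was the list of Langerhans cells and MHC class II, of which 11 of 11 passed, with sums between 4155 and 8985 normalised counts per library. The fibroblast markers summed to 2539, 2242 and 2032 normalised counts in P95H het cells, against 2394, 2005 and 1872 in ctr cells, with overlap, and Dpt, a defining gene of dermal fibroblasts, had at most 1 read in any library. P95H het replicate 3 stood apart in genes of antigen-presenting cells. H2-Ab1, an MHC class II chain, had 106, 114 and 813 normalised counts in P95H het cells, against 354, 443 and 648 in ctr cells, and Csf1r, the receptor of macrophages and Langerhans cells, 13.6, 15.6 and 173 normalised counts in P95H het cells, against 22.6, 64 and 47.4 in ctr cells. For both, 1 P95H het library was high and the others of its group low, and the groups overlapped.

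No gene passed limma's adjusted threshold of 0.05 (0 of 14914 genes, 0%), and the smallest adjusted p was 0.0586. Unadjusted p values under 0.05 were found for 2376 genes (15.9%), 1071 of them higher in P95H het cells (7.18%) and 1305 lower (8.75%). All 3 P95H het libraries lay above all 3 ctr libraries for 1641 genes (11%) and below them for 1572 (10.5%). The first principal component, with 31.8% of the variance of log2 levels, placed all 3 P95H het libraries on one side and all 3 ctr libraries on the other. On the whole reads recovered from the normalised values, DESeq2 called 350 of 12885 genes (2.72%), 110 higher (0.854%) and 240 lower (1.86%), whereas edgeR's quasi-likelihood test called 1 (0.00671%), Ostf1. The limma count moved with single libraries: it was 99 without P95H het replicate 1, 4 without P95H het replicate 3 and 2 without ctr replicate 3. The differences below are therefore given as levels in each library or as log2 differences ± standard error. None of them passed the limma threshold over all genes.

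The 15 genes with the smallest p in each direction, taken among genes with a mean of at least 50 and no overlap between the groups after the values had been seen, all had DESeq2 adjusted p values of at most 0.0106, against limma adjusted p values of 0.0586 to 0.1. Since they were chosen by these p values, their differences are a description. The 15 higher genes were Ostf1, Lbh, Nbea, Pi15, Sfrp1, Col27a1, Shisa2, Igfl3, Fam120c, Ptch1, Smim1, Ttyh3, Mfsd9, Evl and Ptp4a3, and the 15 lower genes Slc5a8, Cpxm2, Gpnmb, Coq10b, Fosb, Il6ra, Errfi1, Epha2, Spink5, Fam46b, Mafk, Dnajb4, Sertad1, Nmrk1 and Il1a.

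**Figure D1:**
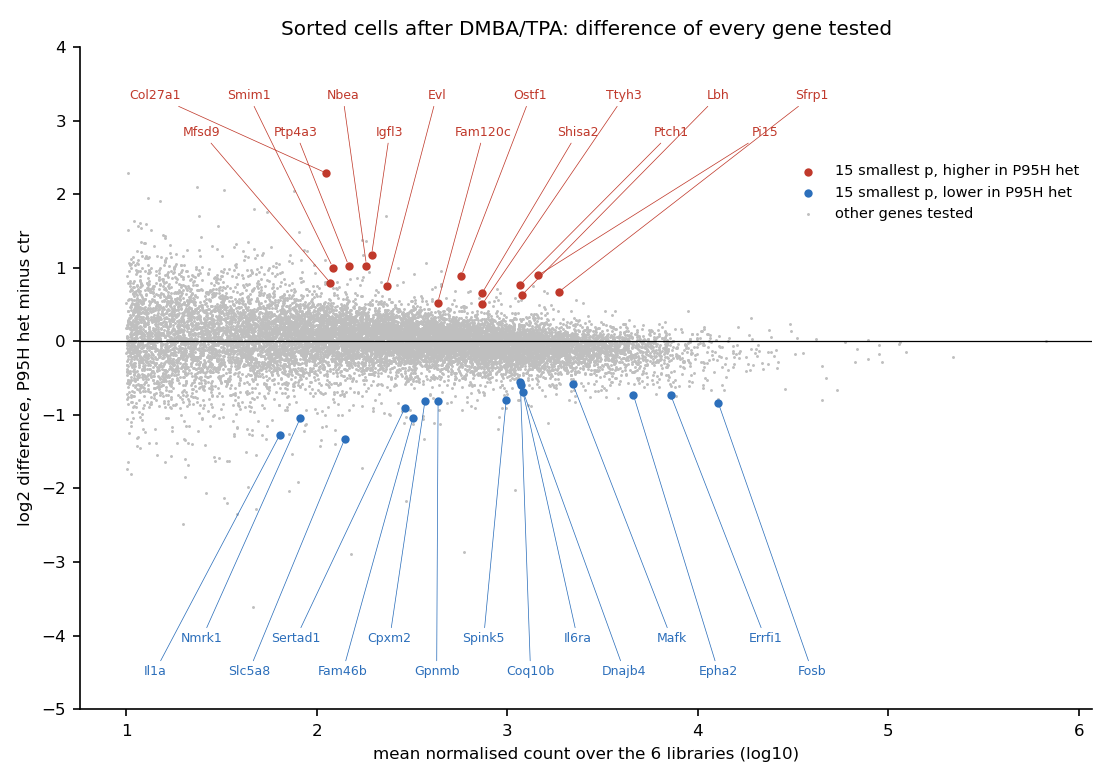
Each point is 1 of the 14914 genes tested, with its mean normalised count over the 6 libraries (x, log10) and its log2 difference, P95H het minus ctr (y). The named genes are the 15 with the smallest p in each direction, and among them Col27a1, at 2.28, is the farthest above 0 and Slc5a8, at -1.33, the farthest below.

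Among the genes higher in P95H het cells, Ostf1, an SH3-domain adaptor protein at chr19:18516137-18631823 (GRCm38, minus strand), had 719.9, 797 and 715 normalised counts in P95H het cells, against 420.3, 377 and 404 in ctr cells. Every P95H het library was above every ctr library by more than the spread within either group, with a log2 difference of 0.89 ± 0.10 (limma adjusted p = 0.0586, edgeR's quasi-likelihood adjusted p = 0.0482). Col27a1, a fibrillar collagen chain, had 169, 230.0 and 152 normalised counts in P95H het cells, against 37.2, 66.8 and 19 in ctr cells, the largest difference of the 30 at 2.28 ± 0.38 (limma adjusted p = 0.1). Its ctr libraries were low and spread widely, yet none reached the lowest P95H het library.

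Sfrp1, a secreted Wnt antagonist, had 2234, 2534 and 2098 normalised counts in P95H het cells, against 1503, 1559 and 1252 in ctr cells (log2 0.67 ± 0.11, limma adjusted p = 0.1). Lbh, a transcription regulator downstream of Wnt, had 1344, 1551 and 1438 normalised counts in P95H het cells, against 942, 889.9 and 971 in ctr cells (log2 0.63 ± 0.09, limma adjusted p = 0.082). In both, the 3 P95H het libraries were high and the groups did not overlap. Shisa2, which holds back Wnt and FGF receptors, was at 0.65 ± 0.11. Among the rest were Pi15, a protease inhibitor, at 0.90 ± 0.14, Nbea, a scaffold of membrane traffic, at 1.03 ± 0.16, Evl, a regulator of actin, at 0.75 ± 0.14, and Ptp4a3, a phosphatase, at 1.03 ± 0.19 (limma adjusted p between 0.0586 and 0.1 for all).

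Among the genes lower in P95H het cells, Slc5a8, a carrier of short-chain fatty acids and lactate at chr10:88885992-88929515 (GRCm38, plus strand), had 66.6, 90.8 and 80.5 normalised counts in P95H het cells, against 196, 206 and 198 in ctr cells. The 3 ctr libraries lay close together, well above the 3 P95H het libraries, with a log2 difference of -1.33 ± 0.15 (limma adjusted p = 0.0586). Cpxm2, of the carboxypeptidase family, had 256, 252 and 297 normalised counts in P95H het cells, against 451, 497 and 462 in ctr cells (log2 -0.81 ± 0.11, limma adjusted p = 0.082), and Gpnmb, a transmembrane glycoprotein of melanosomes and lysosomes, had 345, 324 and 273 normalised counts in P95H het cells, against 560.0, 565 and 527 in ctr cells (log2 -0.81 ± 0.11, limma adjusted p = 0.082). All P95H het libraries were low for both. Il6ra, the interleukin-6 receptor, was at -0.60 ± 0.09, and Spink5, an inhibitor of the proteases that shed corneocytes, at -0.80 ± 0.13 (limma adjusted p = 0.0986 and 0.1). Dnajb4, a heat shock cochaperone, was at -0.69 ± 0.11, Mafk, a small Maf protein, at -0.58 ± 0.09, and Coq10b, which binds coenzyme Q in mitochondria, at -0.56 ± 0.08, each with no overlap between the groups.

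Gene lists give the comparison by pathway and cell type, each as the number of its members whose groups did not overlap, read against the 11% of all genes with P95H het above ctr and the 10.5% below. Among lists with at least 10 members tested, the largest shares above were in the Hedgehog pathway (54.5%), hair shaft and inner root sheath genes (47.1%) and replication-dependent histones (42.1%). The largest shares below in these lists were in AP-1 and immediate early genes (40.9%), genes of the Ras and MAPK response (35%) and the EGFR family (33.3%). No member of any of the 48 lists passed the limma threshold. With every library scaled to the same total the median of all genes was 0.09 in place of -0.0083, and list medians shifted by about as much, so that those of the core spliceosome, nonsense-mediated decay, ribosomal protein, spinous and upper follicle lists turned from just below to just above 0.

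**Figure D2:**
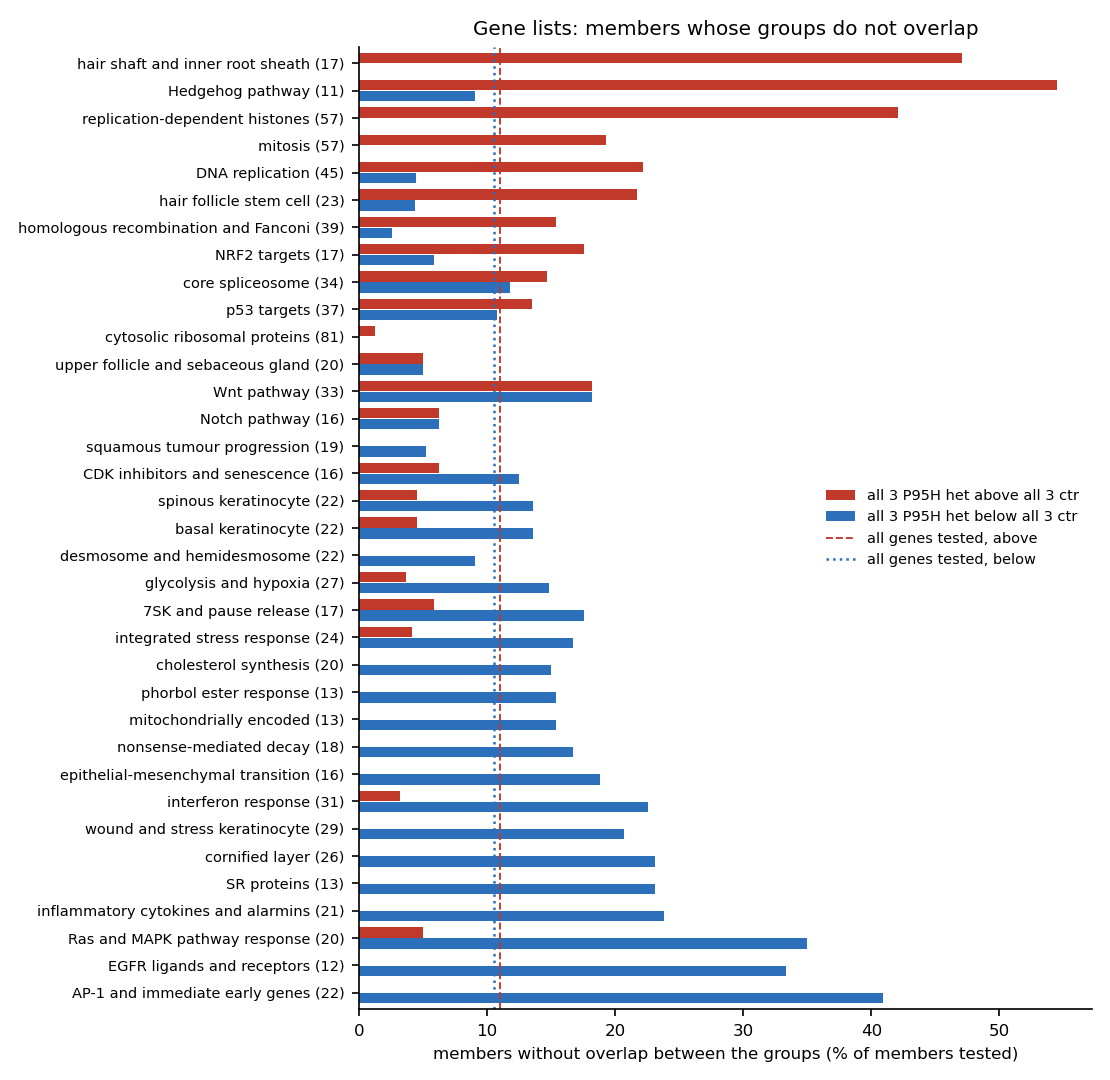
Bars give the percentage of each list's tested members (number in brackets) with all 3 P95H het libraries above all 3 ctr libraries, or below them, and the vertical lines give the same for all genes tested, 11% above and 10.5% below. Hedgehog genes, hair shaft genes and histones stand well right of the line for genes above, and AP-1 genes right of the line for genes below.

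**Figure D3:**
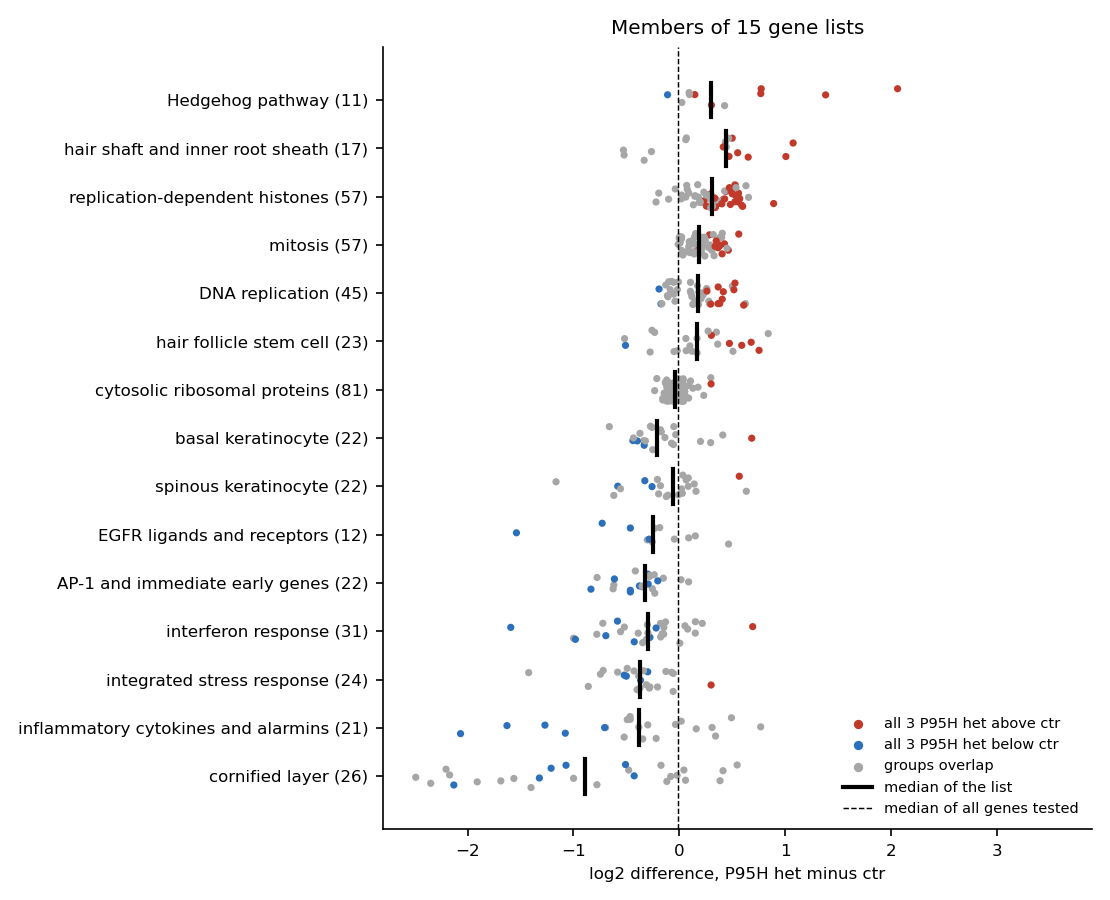
Each point is a member of 1 of 15 lists, placed by its log2 difference, P95H het minus ctr, and coloured by whether the groups overlap; thick lines are list medians and the dashed line is the median of all genes. The cornified layer list spreads farthest below 0, and the ribosomal proteins stay close to 0.

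Hedgehog target genes were higher in P95H het cells. This pathway controls growth of the hair follicle: SHH binds the receptor PTCH1, which frees SMO to activate GLI transcription factors, and these in turn induce Ptch1, Hhip and Gli1, so that these genes serve as its readout. Ptch1, at chr13:63508328-63573598 (GRCm38, minus strand), had 1459, 1759.9 and 1206 normalised counts in P95H het cells, against 912, 889 and 769.5 in ctr cells. The lowest P95H het library was above the highest ctr library, with a log2 difference of 0.77 ± 0.14 (limma adjusted p = 0.1). Hhip, which binds and sequesters the ligand, had 61.6, 66.6 and 30 normalised counts in P95H het cells, against 17.3, 13 and 6.03 in ctr cells (log2 2.06 ± 0.43, limma adjusted p = 0.107). Gli1, the transcription factor, had 562, 689 and 439 normalised counts in P95H het cells, against 383, 381 and 232 in ctr cells (log2 0.77 ± 0.22, limma adjusted p = 0.175). None of the 3 overlapped between groups, P95H het replicate 2 was the highest library for each of them, and DESeq2 called all 3, against 2.72% of all genes it tested. Fibroblast markers, at the sums given above, overlapped between the groups, and their part in these values was not tested.

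The other members of the pathway named here differed less. The coreceptors Gas1, at 0.30 ± 0.09, and Boc, at 0.15 ± 0.08, were also higher without overlap, whereas Cdon, at 0.02 ± 0.10, the transducer Smo, at 0.10 ± 0.08, the inhibitor Sufu, at 0.09 ± 0.09, and Gli2, at 0.43 ± 0.24, overlapped. Gli3, whose protein acts mostly as a repressor, was lower without overlap, at -0.11 ± 0.08, the only member below 0. All 3 ligands were below the mean of 10: Shh had 11.1, 5.19 and 6 normalised counts in P95H het cells, against 1.33, 6.5 and 0 in ctr cells, and Dhh had 16, 9.51 and 11.1 normalised counts in P95H het cells, against 5.32, 1.86 and 6.03 in ctr cells. Ihh lay on the other side, with 0, 0.865 and 2.57 normalised counts in P95H het cells, against 3.99, 0 and 3.45 in ctr cells. Of 11 members tested, 6 were higher and 1 lower without overlap, and DESeq2 called 4 higher, counts that include a member not reported here. The median was 0.30 on the log2 scale, 0.21 to 0.35 with any 1 library left out.

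Hair follicle genes that passed the filter were more often higher than lower. Of 17 hair shaft and inner root sheath genes that passed the filter, out of 36 measured, 8 were higher without overlap and 0 lower, with a median of 0.44. Krt35, a hair cortex keratin, had 116, 63.1 and 66 normalised counts in P95H het cells, against 57.2, 26.9 and 37.1 in ctr cells, and Dlx3, a transcription factor of hair differentiation, 153, 149 and 148 normalised counts in P95H het cells, against 90.4, 92.8 and 103 in ctr cells (log2 1.01 ± 0.32 and 0.65 ± 0.14, limma adjusted p = 0.201 and 0.11). Both are low levels beside Krt5, and P95H het replicate 1 was the highest library for Krt35. With no filter the median over 34 genes was 0.06. Limma then called 1 of them lower and 0 higher. Krt26, an inner root sheath keratin below the filter, had 0, 0 and 0.857 normalised counts in P95H het cells, against 9.31, 9.28 and 5.17 in ctr cells. The median of those that passed was 0.25 without ctr replicate 3. Its summed level, 11418, 6276 and 6062 normalised counts in P95H het cells, against 9548, 9474 and 10805 in ctr cells, ran the other way in P95H het replicates 2 and 3 and was mostly Gata3, a transcription factor of the epidermis as well, at -0.53 ± 0.24. Of 23 follicle stem cell markers, 5 were higher and 1 lower without overlap. Lhx2, a regulator of those stem cells, had 897, 909 and 741 normalised counts in P95H het cells, against 718, 561 and 439 in ctr cells (log2 0.59 ± 0.17, limma adjusted p = 0.176), and Tbx1, which keeps them quiescent, had 597, 769 and 584 normalised counts in P95H het cells, against 467, 406 and 344 in ctr cells (log2 0.68 ± 0.14, limma adjusted p = 0.113). In bulk RNA of sorted cells, more cells of a type and more RNA per cell cannot be told apart, and the part of the follicle's share of the sort in these values was not tested. The Wnt list had 6 of 33 members higher and 6 lower without overlap. Among the lower ones were the ligands Wnt3 at -0.60 ± 0.14 and Wnt10b at -0.98 ± 0.22 (limma adjusted p = 0.134 and 0.13).

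Replication-dependent histone genes were higher in P95H het cells. They encode the histones laid down in S phase, most of their transcripts lack a poly(A) tail, and the ribosomal RNA depletion used for these libraries retains such transcripts. Of 57 tested, 53 had a log2 difference above 0, 24 were higher without overlap and 0 lower, and DESeq2 called 3 higher, against 0.854% of all genes. The summed level of the list was 19602, 21051 and 19476 normalised counts in P95H het cells, against 17529.8, 14962 and 17118 in ctr cells. All 3 P95H het sums were above all 3 ctr sums. Hist1h2bc, an H2B gene at chr13:23684199-23692908 (GRCm38, plus strand), had 1198, 1535 and 1303 normalised counts in P95H het cells, against 987, 801 and 959 in ctr cells (log2 0.55 ± 0.12, limma adjusted p = 0.115), and Hist2h3b, an H3 gene, had 661, 569.9 and 645 normalised counts in P95H het cells, against 471, 447 and 355 in ctr cells (log2 0.57 ± 0.13, limma adjusted p = 0.125). Many of these genes are nearly identical in sequence, so the counting may have split reads between them, and single members are uncertain. The list's median of 0.31 stayed between 0.27 and 0.38 with any 1 library left out.

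Other genes of proliferating cells were higher by less. Of 57 mitosis genes, 55 lay above 0 and 11 did not overlap, with a median of 0.19, and of 45 DNA replication genes 10 were higher and 2 lower without overlap, with a median of 0.18. Espl1, the separase that splits sister chromatids, had 389.5, 396 and 329.9 normalised counts in P95H het cells, against 251, 283 and 272 in ctr cells (log2 0.46 ± 0.12, limma adjusted p = 0.146). Mcm5, a subunit of the replicative helicase, had 618, 659 and 686 normalised counts in P95H het cells, against 403, 541 and 539 in ctr cells (log2 0.42 ± 0.13, limma adjusted p = 0.191). Ccnb1, the mitotic cyclin B1, had 276, 357 and 278 normalised counts in P95H het cells, against 209, 262 and 215 in ctr cells (log2 0.40 ± 0.14, limma adjusted p = 0.232). Ctr replicate 1 was the lowest library for Mcm5 and Ccnb1. The mitosis list summed to 27674, 31252 and 25629 normalised counts in P95H het cells, against 22135, 25019 and 27548 in ctr cells, with overlap. Mki67, the proliferation marker, overlapped, with 5062, 5315 and 4384 normalised counts in P95H het cells, against 3789.6, 4145 and 4849.9 in ctr cells. The median of the mitosis list was 0.10 and that of the replication list 0.05 without ctr replicate 1, and the mitosis median was 0.08 without P95H het replicate 2 and 0.29 without ctr replicate 3. Of 39 genes of homologous recombination and the Fanconi pathway, 6 were higher without overlap, among them Brca1 at 0.42 ± 0.17 and Rad54l at 0.42 ± 0.17 (limma adjusted p = 0.27 for both), and 1 was lower, Rbbp8, which starts the resection of DNA ends, at -0.39 ± 0.09 (limma adjusted p = 0.138).

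**Figure D4:**
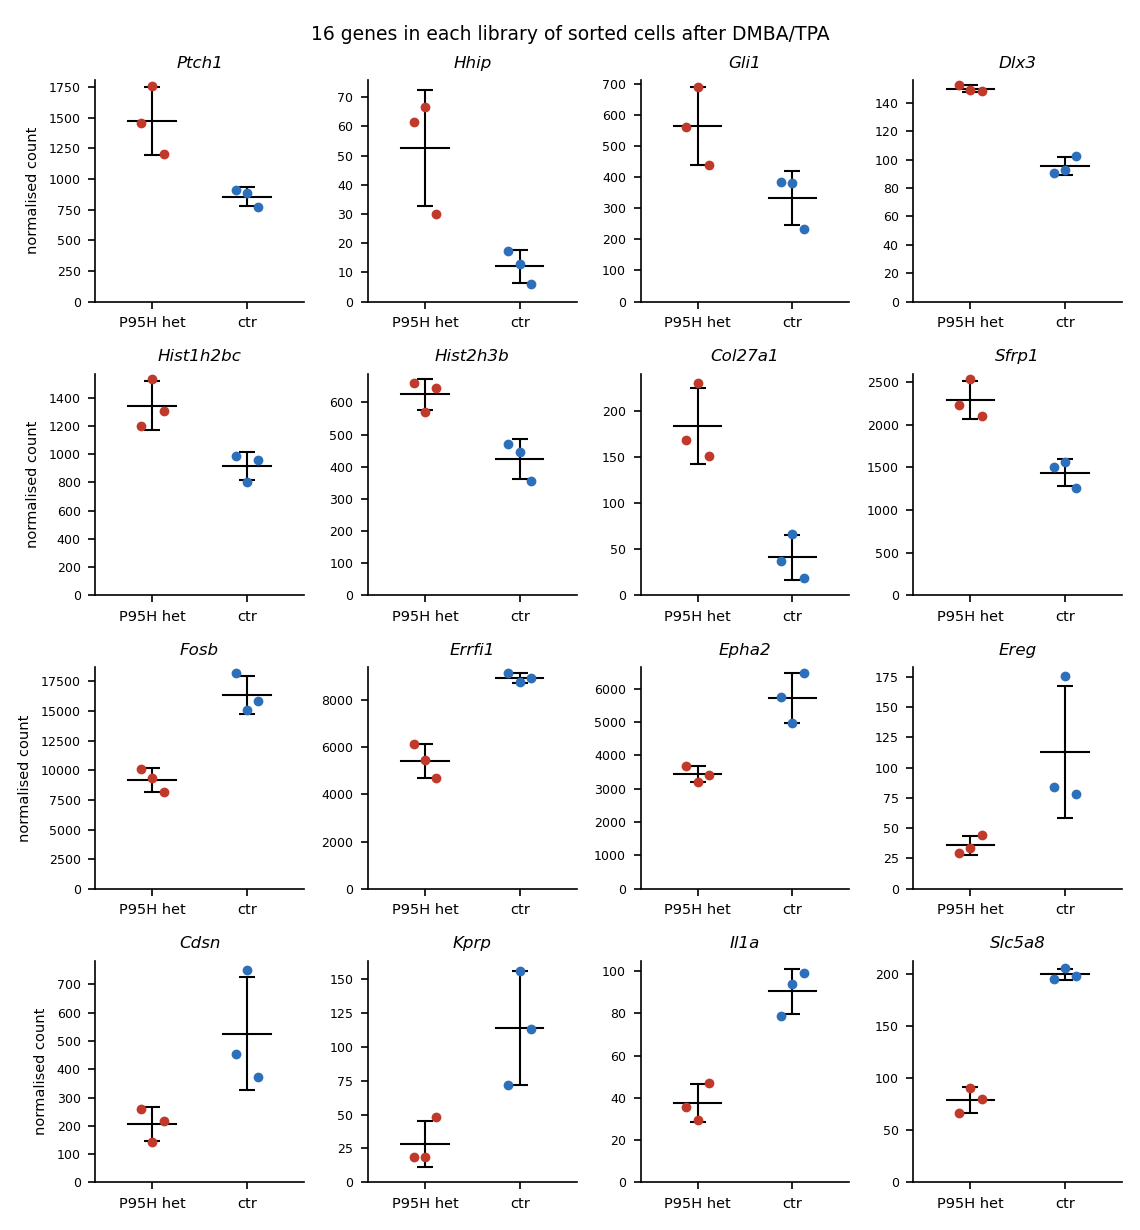
Points are the normalised counts of 16 genes in each of the 3 P95H het and 3 ctr libraries, with the group mean (long bar) and ± 1 SD (capped line); each y axis starts at 0. In every panel the groups do not overlap: the upper 8 genes are higher and the lower 8 lower in P95H het cells.

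The immediate early genes, which cells switch on within minutes of a growth signal and many of which encode parts of AP-1, were lower in P95H het cells. Of 22 tested, 20 had a log2 difference below 0, 9 were lower without overlap and 0 higher, with a median of -0.32. Fosb, a FOS-family subunit of AP-1 at chr7:19302696-19310051 (GRCm38, minus strand), had 10106, 9313 and 8138 normalised counts in P95H het cells, against 18194, 15112 and 15819 in ctr cells. It was lower in every P95H het library, with a log2 difference of -0.84 ± 0.12 (limma adjusted p = 0.0936). Klf4, a transcription factor of epidermal differentiation, had 6556, 6663 and 5484 normalised counts in P95H het cells, against 9995, 7315 and 11735 in ctr cells (log2 -0.61 ± 0.17, limma adjusted p = 0.167), and Egr1, a zinc finger factor, had 11234, 11373 and 12882 normalised counts in P95H het cells, against 15128, 13874 and 16174 in ctr cells (log2 -0.35 ± 0.11, limma adjusted p = 0.203). Of the other AP-1 subunits, Junb, at -0.46 ± 0.15, and Jund, at -0.38 ± 0.10, were lower without overlap, whereas Fos, at -0.42 ± 0.18, Fosl1, at -0.63 ± 0.27, and Jun, at -0.15 ± 0.13, overlapped. The summed level of the list was 150375, 157755 and 155369 normalised counts in P95H het cells, against 195512, 171132 and 218452 in ctr cells, with every P95H het sum below every ctr sum.

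Several genes of EGF receptor signalling were lower without overlap as well. Errfi1, at chr4:150853919-150868892 (GRCm38, plus strand), encodes an inhibitor that EGFR signalling induces and that binds the receptor, and it had 6147, 5455 and 4699 normalised counts in P95H het cells, against 9174, 8768 and 8922 in ctr cells. The ctr libraries lay within a narrow band above all P95H het libraries, and the log2 difference was -0.73 ± 0.11 (limma adjusted p = 0.1). Epha2, an ephrin receptor induced by RAS and MAPK signalling, had 3692, 3213 and 3419.6 normalised counts in P95H het cells, against 5753, 4963 and 6471 in ctr cells (log2 -0.73 ± 0.11, limma adjusted p = 0.1). Some ligands of the receptor lay on the same side. Ereg, epiregulin, had 29.6, 33.7 and 44.6 normalised counts in P95H het cells, against 83.8, 175 and 78.4 in ctr cells (log2 -1.54 ± 0.31, limma adjusted p = 0.107), and Hbegf, heparin-binding EGF, had 859, 1098 and 941 normalised counts in P95H het cells, against 1668, 1203 and 1159 in ctr cells (log2 -0.46 ± 0.15, limma adjusted p = 0.203). Ctr replicate 2 was far above the other libraries for Ereg. The other ligands overlapped between groups. Epgn, at -0.30 ± 0.25, and Tgfa, at -0.23 ± 0.19, lay below 0. Egf, at 0.47 ± 0.35, Areg, at 0.15 ± 0.13, and Btc, at 0.09 ± 0.24, lay above 0. Erbb3, a receptor that pairs with EGFR or ERBB2, was lower without overlap at -0.28 ± 0.10, and Egfr itself, at -0.26 ± 0.13, overlapped between groups (limma adjusted p = 0.237 and 0.38). Of 20 genes of the Ras and MAPK response, 7 were lower without overlap and 1 was higher, among the lower Dusp6, at -0.48 ± 0.11, and Dusp5, at -0.48 ± 0.13, phosphatases that switch off ERK and are themselves ERK targets (limma adjusted p = 0.134 and 0.158). Hras, the gene that DMBA mutates most often in this model, had 1198, 1287 and 1218 normalised counts in P95H het cells, against 1262, 1332 and 1159 in ctr cells, with a log2 difference of -0.02 ± 0.09 (limma adjusted p = 0.94). These counts do not show mutations.

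The promoters of genes that were lower together are shown for 3 of them. Each is the 250 bases before a RefSeq transcription start of the gene (GRCm38.p6, read along its strand). The Errfi1 window lies inside the gene span given above, so it precedes a start downstream of the first base of that span. Capitals mark TGACGTCA, the palindromic site bound by CREB and ATF proteins, and Fosb, which has none, is shown for comparison.
Errfi1, chr4:150854820-150855069, plus strand: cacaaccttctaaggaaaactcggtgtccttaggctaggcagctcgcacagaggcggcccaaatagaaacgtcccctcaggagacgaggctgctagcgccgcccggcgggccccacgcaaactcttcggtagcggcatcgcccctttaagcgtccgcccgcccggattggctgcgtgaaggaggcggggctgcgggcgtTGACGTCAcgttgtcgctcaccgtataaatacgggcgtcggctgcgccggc
Epha2, chr4:141300971-141301220, plus strand: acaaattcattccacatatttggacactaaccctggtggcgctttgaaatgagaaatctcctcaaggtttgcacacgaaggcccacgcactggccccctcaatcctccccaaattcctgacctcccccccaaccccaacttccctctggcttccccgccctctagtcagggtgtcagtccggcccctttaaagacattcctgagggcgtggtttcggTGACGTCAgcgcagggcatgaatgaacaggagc
Fosb, chr7:19310046-19310295, minus strand: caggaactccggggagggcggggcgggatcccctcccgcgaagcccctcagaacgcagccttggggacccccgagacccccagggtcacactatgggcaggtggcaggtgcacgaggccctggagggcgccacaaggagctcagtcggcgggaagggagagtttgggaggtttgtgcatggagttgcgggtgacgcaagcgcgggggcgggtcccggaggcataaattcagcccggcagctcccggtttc
Counted from the start that each window precedes, the site began at -51 in Errfi1 and at -33 in Epha2. Of the 15 lower genes, 13 had a RefSeq promoter and 2 held TGACGTCA in it, and of the 15 higher genes 12 had one and 0 held the site, against 1.77% of the 27025 genes with a promoter. TGAGTCA, the AP-1 site, searched on both strands like the first, was held by 1 lower gene, Il1a, and 0 higher genes, against 5.16% of all genes with a promoter (1.55% and 4.46% of all 32851 promoters held the sites). Sites farther away were not searched, and the counts are a description of these windows.

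Genes of the cornified layer, the dead outer layer of the epidermis, were mostly lower in P95H het cells. Of 26 that passed the filter, out of 37 measured, 21 lay below 0, 6 were lower without overlap and 0 higher, and the median was -0.89, -1.13 to -0.63 with any 1 library left out. The median was -0.43 over the 19 genes with a mean of at least 50. The list's summed level, 13973, 14665 and 12800 normalised counts in P95H het cells, against 14662, 18039 and 15620 in ctr cells, overlapped. Cdsn, corneodesmosin, which joins corneocytes, had 260.1, 142 and 218 normalised counts in P95H het cells, against 452, 753 and 372 in ctr cells (log2 -1.32 ± 0.27, limma adjusted p = 0.107). Kprp, a keratinocyte proline-rich protein outside the list and named after its values were seen, had 18.5, 19 and 48 normalised counts in P95H het cells, against 71.8, 156 and 113 in ctr cells (log2 -2.03 ± 0.39, limma adjusted p = 0.1). Ctr replicate 2 was the highest library for both genes, and no P95H het library reached the lowest ctr library. Lor, loricrin, a main protein of the cornified envelope, had 19.7, 17.3 and 74.5 normalised counts in P95H het cells, against 73.2, 187 and 108 in ctr cells, and Flg2, of the filaggrin family, had 48.1, 66.6 and 241 normalised counts in P95H het cells, against 231, 744 and 421 in ctr cells. For both the third P95H het library lay within the ctr range, so the groups overlapped (log2 -1.91 ± 0.52 and -2.17 ± 0.56, limma adjusted p = 0.17 and 0.157). Enzymes of the envelope and its lipids, Tgm1, at -0.51 ± 0.20, Alox12b, at -1.07 ± 0.35, and the lipid carrier Abca12, at -0.43 ± 0.14, did not overlap. Not all of the list was lower, with Tgm3, at 0.55 ± 0.34, the protease Casp14, at 0.38 ± 0.21, and involucrin, Ivl, at 0.04 ± 0.13. Late cornified genes of the LCE family, such as Lce1c with 8.63, 6.05 and 21.4 normalised counts in P95H het cells, against 31.9, 80.7 and 46.5 in ctr cells, are near-identical copies counted at low levels, and reads may have been split between them.

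Deeper layers differed less. Krt1, a keratin of the spinous layer, had 20613, 38318 and 17809.9 normalised counts in P95H het cells, against 20292, 26673 and 18730.0 in ctr cells. Krt10, its partner, had 23011, 32782 and 18396 normalised counts in P95H het cells, against 20964, 31260.0 and 18519.7 in ctr cells. Both ranges overlapped almost fully, with log2 differences of 0.16 ± 0.26 and 0.06 ± 0.24 (limma adjusted p = 0.802 and 0.92). Grhl3, a transcription factor of the epidermal barrier, had 1377, 1069 and 1002 normalised counts in P95H het cells, against 1812, 1555 and 1755 in ctr cells (log2 -0.58 ± 0.13, limma adjusted p = 0.115), without overlap. In the basal list 3 of 22 genes were lower without overlap, among them Itga3, the integrin subunit that binds laminin, with 3901, 3429.8 and 3384 normalised counts in P95H het cells, against 5001, 4742 and 4755 in ctr cells (log2 -0.44 ± 0.09, limma adjusted p = 0.107), and 1 was higher, shares near those of all genes. Of the keratins of wounded and hyperproliferative epidermis, Krt6a had 5408, 7723 and 4912 normalised counts in P95H het cells, against 6438, 5406 and 5583 in ctr cells. Krt17 had 36378, 34562 and 30571 normalised counts in P95H het cells, against 33738, 27966 and 36661 in ctr cells. The groups overlapped for both (log2 0.03 ± 0.16 and 0.05 ± 0.15), and Krt16 was at -0.43 ± 0.18. Krt6b had 59.2, 106 and 45.4 normalised counts in P95H het cells, against 157, 548 and 122 in ctr cells, lower without overlap and with a wide ctr range (log2 -1.72 ± 0.50, limma adjusted p = 0.189), and its sequence is close to that of Krt6a. Krt18, of simple epithelia and advanced tumours, was near the floor of 10, with 4.93, 8.65 and 11.1 normalised counts in P95H het cells, against 14.6, 7.42 and 15.5 in ctr cells, and its partner Krt8 was below it, with 4.93, 8.65 and 4.28 normalised counts in P95H het cells, against 20, 1.86 and 6.03 in ctr cells.

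Most inflammatory and interferon genes tested had a log2 difference below 0, but the summed levels of both lists overlapped between the groups. The cytokine and alarmin list summed to 12534.5, 9759 and 9460 normalised counts in P95H het cells, against 14218, 10297 and 16357 in ctr cells. The interferon list summed to 5069, 4673 and 6644 normalised counts in P95H het cells, against 7256, 5933 and 8071 in ctr cells. Of 21 cytokine and alarmin genes that passed the filter, out of 29 measured, 5 were lower without overlap and 0 higher, with a median of -0.38. Il1a, interleukin-1 alpha, which keratinocytes release on injury, had 35.7, 29.4 and 47.1 normalised counts in P95H het cells, against 78.5, 93.7 and 99.1 in ctr cells. Its highest P95H het library was below the lowest ctr library (log2 -1.27 ± 0.22, limma adjusted p = 0.1). S100a9, an alarmin, had 4.93, 18.2 and 6.85 normalised counts in P95H het cells, against 22.6, 46.4 and 57.7 in ctr cells (log2 -2.07 ± 0.49, limma adjusted p = 0.137), a low level in every library. S100a9 is also a neutrophil gene. Of the 4 tested neutrophil and mast cell markers, 2 were lower without overlap. All 16 listed markers, tested or not, summed to 191, 179.9 and 214 normalised counts in P95H het cells, against 221, 240.3 and 239 in ctr cells. Just 1 of these markers had a mean of at least 50, and it lay above 0, at 0.33. The part of such cells was not tested. Of 31 interferon response genes that passed, out of 40, 24 lay below 0, 7 were lower and 1 was higher without overlap. Irgm1, an interferon-induced GTPase, had 143, 124 and 218 normalised counts in P95H het cells, against 389.7, 248 and 310.2 in ctr cells (log2 -0.98 ± 0.23, limma adjusted p = 0.134). Ifi47, another of that family, had 13.6, 6.92 and 28.3 normalised counts in P95H het cells, against 57.2, 40.8 and 37.1 in ctr cells (log2 -1.59 ± 0.44, limma adjusted p = 0.174). P95H het replicate 3 was the nearest to ctr for both. The interferon list, on a centred log2 scale, was at -0.35, -0.38 and 0.26 in P95H het cells. The ctr libraries were at 0.26, -0.01 and 0.23, so P95H het replicate 3 was not lower than ctr for this list. In the same libraries the 11 Langerhans cell and MHC class II genes summed to 4736, 4155 and 8985 normalised counts in P95H het cells, against 7123, 6388 and 8153 in ctr cells. That sum was also lowest in P95H het replicates 1 and 2, and its part in the interferon values was not tested. The interferon median was -0.47 without P95H het replicate 3, -0.18 without P95H het replicate 1 and -0.18 without P95H het replicate 2, against -0.30 with all libraries.

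Among stress pathways, 23 of 24 genes of the integrated stress response lay below 0, with a median of -0.37 (-0.21 without ctr replicate 3). In that response, 4 of 24 were lower without overlap (16.7%, against 10.5% of all genes) and 1 was higher. Atf4, its transcription factor, had 4416, 3822 and 3643 normalised counts in P95H het cells, against 5407, 5035 and 6672 in ctr cells (log2 -0.52 ± 0.12, limma adjusted p = 0.137), and Slc7a5, an amino acid transporter, had 780.2, 617 and 632 normalised counts in P95H het cells, against 920.5, 974 and 963 in ctr cells (log2 -0.50 ± 0.11, limma adjusted p = 0.113). Both were lower in all 3 P95H het libraries. The whole list, on a centred log2 scale, was at -0.0007, -0.33 and -0.26 in P95H het cells. The ctr libraries were at 0.08, 0.005 and 0.51, so P95H het replicate 1 and ctr replicate 2 were nearly equal and ctr replicate 3 stood highest. Cholesterol genes had 3 of 20 members lower without overlap (15%, against 10.5% of all genes). Among them was Sqle, squalene epoxidase, with 1718, 1888 and 1601 normalised counts in P95H het cells. It had 2035, 2471 and 2555 in ctr cells (log2 -0.44 ± 0.11, limma adjusted p = 0.146). The list summed to 41158.5, 40459 and 38681 normalised counts in P95H het cells, against 40988, 53134 and 58972.5 in ctr cells. Ctr replicate 1 lay within the P95H het range. Cyp1b1, which activates DMBA to its mutagenic form and is induced through the aryl hydrocarbon receptor, was higher, with 1167, 1044 and 948 normalised counts in P95H het cells, against 619, 690.4 and 771 in ctr cells (log2 0.60 ± 0.11, limma adjusted p = 0.1), whereas Tiparp, another target of that receptor, was lower, at -0.36 ± 0.11 (limma adjusted p = 0.189). The sources used here do not say how long before the sort DMBA was given.

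The p53 pathway showed members on both sides, 5 higher and 4 lower without overlap of 37, close to the background of all genes. Trp53 had 1679, 1532 and 1453 normalised counts in P95H het cells, against 1604, 1444 and 1379.7 in ctr cells (log2 0.08 ± 0.09, limma adjusted p = 0.728). Cdkn1a, the p53-induced inhibitor of cyclin-dependent kinases, had 3422, 2939 and 2703 normalised counts in P95H het cells, against 4303, 3654 and 3779 in ctr cells, lower without overlap (log2 -0.38 ± 0.11, limma adjusted p = 0.189), and Mdm2, which degrades p53, overlapped at -0.12 ± 0.13 (limma adjusted p = 0.683). Cdkn2a, the locus of p16 and p19ARF, was below the mean of 10, with 4.93, 5.19 and 7.71 normalised counts in P95H het cells, against 6.65, 9.28 and 8.62 in ctr cells. Sulf2, a p53 target that edits heparan sulfate, was higher, with 1024, 1014 and 1147 normalised counts in P95H het cells, against 609, 758 and 801 in ctr cells (log2 0.56 ± 0.12, limma adjusted p = 0.108).

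The splicing machinery in which SRSF2 works showed small differences. Of 13 SR protein genes 11 lay below 0, but by little, with a median of -0.12 and 3 lower without overlap, and of 34 core spliceosome genes 5 were higher and 4 lower, with a median of -0.01. U2af1, the factor that reads the end of the intron and is, in human, itself mutated in myeloid neoplasms, was lower by a small amount, with 583, 533 and 548 normalised counts in P95H het cells, against 657, 625 and 710.1 in ctr cells (log2 -0.26 ± 0.09, limma adjusted p = 0.235). Supt5, a subunit of the pausing factor DSIF, had 2332, 2267 and 2307 normalised counts in P95H het cells, against 2767, 2558 and 2857 in ctr cells (log2 -0.24 ± 0.08, limma adjusted p = 0.212), among 3 lower and 1 higher of 17 genes of pausing and the 7SK complex. Of 18 genes of nonsense-mediated decay 3 were lower and 0 higher without overlap, and of 81 ribosomal protein genes 1 was higher and 0 lower. Counts per gene do not measure exon use, so splicing was not analysed here.

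The remaining lists are read against the same background, 11% above and 10.5% below. Wound and stress genes had 6 of 29 members lower without overlap (20.7%), and genes of epithelial-mesenchymal transition 3 of 16 (18.8%). Phorbol ester response genes had 2 of 13 lower (15.4%), and glycolysis and hypoxia genes 4 of 27 lower (14.8%) and 1 higher. NRF2 targets had 3 of 17 higher (17.6%) and 1 lower, and Notch genes 1 of 16 higher and 1 lower. All 13 mitochondrially encoded transcripts lay below 0, with a median of -0.21 and 2 of them without overlap. Their summed level, 217474, 190413 and 161653 normalised counts in P95H het cells, against 190117, 182764 and 221183 in ctr cells, overlapped. The median was -0.09 without P95H het replicate 3 and -0.12 without ctr replicate 3. Desmosome and hemidesmosome genes had 2 of 22 lower, and genes of squamous tumour progression 1 of 19. None of these shares reached those of the AP-1, Ras and EGFR lists.

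Beside these values stand the other 2 experiments, each normalised on its own, so that differences between experiments were not tested. In whole skin of P95H mice at 28 days, 1544 of 18174 genes passed the limma threshold (8.5%), 966 higher (5.32%) and 578 lower (3.18%), and in sorted SRSF2-KO cells 7 of 17744 did (0.0394%), 5 higher (0.0282%) and 2 lower (0.0113%). Both counts moved with single libraries. The SRSF2-KO count was 410 without SRSF2-KO replicate 2 and 0 without any other 1 library, and the P95H skin count was 3277 without P95H replicate 1, 556 and 686 without P95H replicates 2 and 4, and 613, 629 and 285 without ctr replicates 1, 2 and 4. Skin values are whole multiples of 1 step per library, and the steps were compared, since the deposited scale put P95H replicate 1 far above the rest. On that deposited scale the median of all genes was 0.60 and 270 genes passed, so that skin differences below about that size depend on the scale. SRSF2-KO replicate 2 of the sorted cells stood apart, with 52.2% of its normalised counts on 1 transcript, Gm26917, against 9.13 to 10.4% in the other 5 libraries of that experiment, so list medians are given with and without it.

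Of the 30 genes with the smallest p after DMBA/TPA, 24 had the same sign in sorted SRSF2-KO cells, where 59.5% of all genes measured in both did, and 23 of 30 against 62.1% without SRSF2-KO replicate 2. Of the 30, 0 passed limma's threshold in sorted SRSF2-KO cells. In P95H whole skin at 28 days 13 of 30 had the same sign, where 48.8% of all genes did, and 3 passed there, against 8.5% of all genes. Cpxm2 fell in P95H skin (log2 -1.01 ± 0.11, limma adjusted p = 0.00255) and Igfl3 rose (log2 2.19 ± 0.37, limma adjusted p = 0.0105), the same side as after DMBA/TPA. Fam46b, a poly(A) polymerase, rose there (log2 1.25 ± 0.23, limma adjusted p = 0.0139), the opposite side. After DMBA/TPA Igfl3 had 242, 364 and 207 normalised counts in P95H het cells, against 106, 122 and 121 in ctr cells (log2 1.18 ± 0.20). Fam46b had 186, 233 and 198 normalised counts in P95H het cells, against 334, 535 and 428 in ctr cells (log2 -1.05 ± 0.17).

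None of the Hedgehog targets described above passed the threshold in the other 2 experiments. In P95H skin at 28 days Ptch1 (log2 -0.36 ± 0.12, limma adjusted p = 0.091), Hhip (log2 -0.63 ± 0.21, limma adjusted p = 0.101) and Gli1 (log2 -0.19 ± 0.17, limma adjusted p = 0.493) were below 0 on the scale of steps. These skin differences are of about the size that depends on the scale, since the median of all genes was 0.60 on the deposited one. In sorted SRSF2-KO cells Ptch1 (log2 -0.45 ± 0.18, limma adjusted p = 0.273) was below 0 and Gli1 (log2 0.37 ± 0.52, limma adjusted p = 0.725) above it. The list's median was 0.0048 in P95H skin and -0.02 in sorted SRSF2-KO cells (0.15 without replicate 2). The immediate early genes had a median of -1.05 in sorted SRSF2-KO cells (-1.41 without replicate 2) and 0.45 in P95H skin, so that they were below 0 in both sorted experiments and above it in whole skin. Fosb did the same without passing the threshold in either, in sorted SRSF2-KO cells (log2 -1.65 ± 0.67, limma adjusted p = 0.271) and in P95H skin (log2 1.64 ± 0.54, limma adjusted p = 0.095).

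Several genes of stressed epidermis had opposite signs in the 2 P95H experiments, a difference that was not tested. Krt16 rose in P95H skin at 28 days (log2 3.38 ± 0.40, limma adjusted p = 0.0028), and so did Krt6b (log2 4.54 ± 0.62, limma adjusted p = 0.00492), Cdkn1a (log2 0.82 ± 0.12, limma adjusted p = 0.00674), the stress kinase Plk3 (log2 1.13 ± 0.17, limma adjusted p = 0.00667) and Irgm1 (log2 0.99 ± 0.20, limma adjusted p = 0.0215). After DMBA/TPA none of the 5 was above 0, with Plk3 at -0.45 ± 0.12. Krt6a, at 0.03, and Krt17, at 0.05, were just above 0 there. The wound and stress list had a median of -0.14 after DMBA/TPA, with 12 of 29 members above 0. Its median was 2.03 in P95H skin and 1.22 in sorted SRSF2-KO cells (2.03 without replicate 2). The interferon list had a median of 1.68 in P95H skin and the cornified list one of 0.82. In sorted SRSF2-KO cells these medians were -0.29 and -0.42 (-0.50 and 0.03 without replicate 2). Histones and replication genes, in contrast, were above 0 in both: the histone median was 0.31 and the replication median 0.36 in P95H skin, where Hist1h2bc (log2 0.64 ± 0.08, limma adjusted p = 0.00315), Mcm5 (log2 1.06 ± 0.23, limma adjusted p = 0.0269), Uhrf1, which copies DNA methylation (log2 0.83 ± 0.17, limma adjusted p = 0.0201), and Lig1, a DNA ligase (log2 0.57 ± 0.11, limma adjusted p = 0.0194), rose. After DMBA/TPA Uhrf1 was at 0.38 ± 0.13 and Lig1 at 0.37 ± 0.11. Whole skin holds cells that the sort leaves out, and the tissue, the treatment and the time differ together between these experiments.

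**Figure D5:**
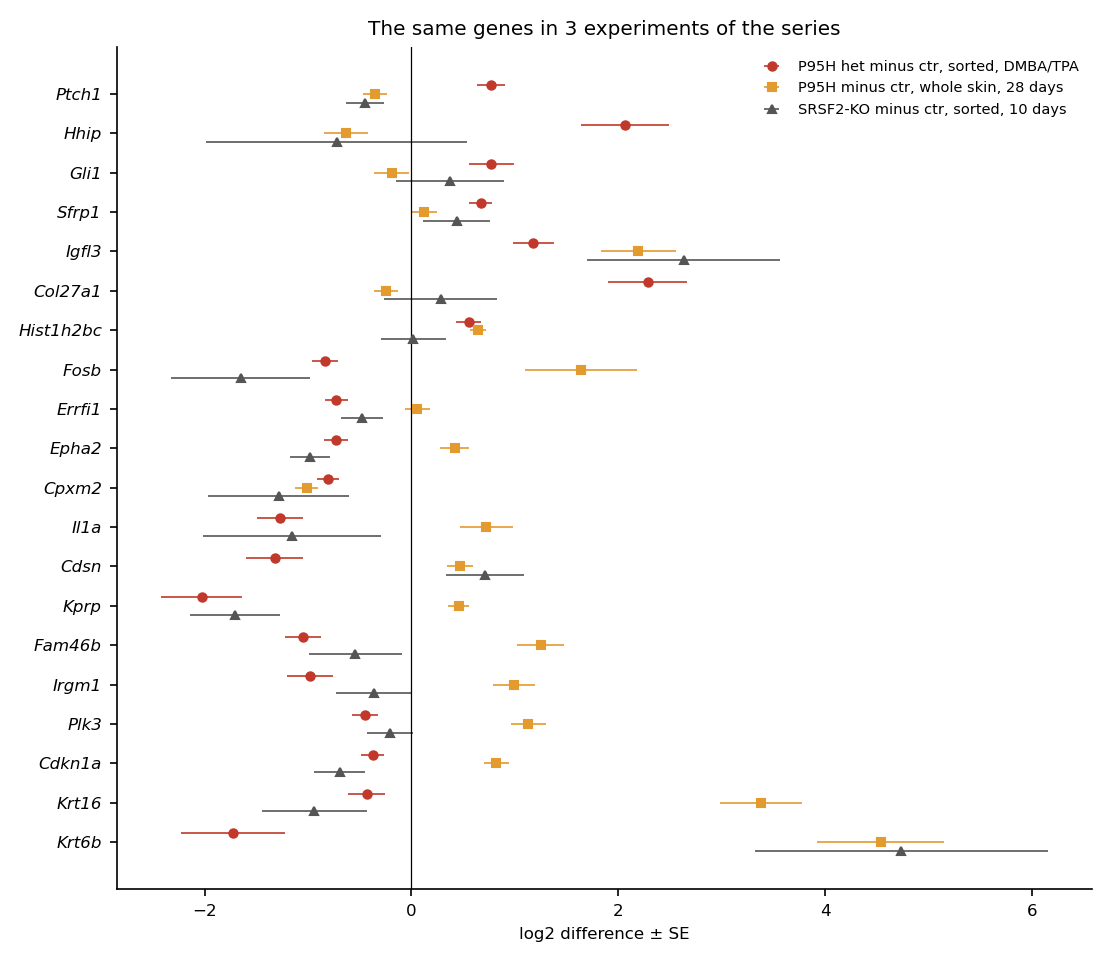
Points are log2 differences ± SE of 20 genes in sorted cells after DMBA/TPA (P95H het minus ctr), in whole skin at 28 days (P95H minus ctr) and in sorted cells at 10 days (SRSF2-KO minus ctr). Ptch1, Hhip and Gli1 are above 0 after DMBA/TPA and not in P95H skin, and Krt16 and Krt6b are below 0 after DMBA/TPA and far above it in P95H skin. Skin differences are on the scale of steps, and small ones depend on that scale.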

How the data were processed

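RNA extracted with Trizol was made into stranded total RNA libraries after removal of ribosomal RNA, per the labels' protocols. STAR, featureCounts and DESeq2 are named in the submitters' processing notes. The genome build, tool versions and strand setting were "not given in the sources used here". Normalised counts, a signal that is never negative, were deposited by the authors in 1 table per experiment. In the table of sorted P95H cells every value, 100%, was a whole multiple of 1 value per library (tolerance 1e-04), from which whole reads were recovered. The table held 49585 identifiers, of which 49326 were matched by ID to GENCODE M21 (GRCm38) for positions. Another 12 columns of per-sample values were not used.

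The comparison used limma 3.58.1 with a mean-variance trend on log2(value + 1), in R 4.3.3, for genes with a mean of at least 10, with two-sided tests and Benjamini-Hochberg adjustment over all genes tested at 0.05. Fold changes on this scale understate those of low genes. Whole reads were also tested with edgeR 4.0.16 (quasi-likelihood) and DESeq2 1.42.0. The script was tested on simulated data. The ± after a log2 difference is limma's moderated standard error, which draws on the variance of all genes. With so few mice it covers these samples only. The rule for named genes took the 15 largest rises and falls past the threshold, which gave none, up to 5 members of each list by smallest p, and a set of markers; the 30 genes with the smallest p were added after the values were seen, as were Kprp and single list members given for completeness. The members and lists were chosen with earlier results of these data known. The transcript Gm26917 took 3.91 to 6.34% of each library and was kept. No libraries of this comparison were copies of each other. Some single genes are not reported here.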

Additional observations from a re-analysis of the deposited data

Results flagged for a closer look

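Of 46 genes whose 4 P95H whole-skin libraries at 28 days were examined, 4 had 1 library far from the other 3, where chance sets about 1 group in 20 apart. The gap to the nearest library took 0.909 of the range for Cpxm2 (275, 281, 283 and 363 steps), 0.875 for Evl (249, 253, 261 and 345 steps), 0.853 for Irgm1 (465, 474, 526 and 879 steps) and 0.958 for Ifi47 (171, 172, 177 and 314 steps). Groups of 3, such as P95H het and ctr after DMBA/TPA, were too small for this check.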

How the results depend on the processing

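Limits: with 3 mice a side, no gene passed limma's threshold, and the number that did under other settings ranged widely. In the DMBA/TPA comparison the count was 0 with a pseudocount of 0.5 or 10, with a mean of at least 50 and with TMM scaling. It was 73 with no filter on low values, 1 with equal totals, 1 with edgeR's quasi-likelihood test, 350 with DESeq2, and 0 to 99 with any 1 library left out. With the replicate number as a block it was 113. Deviations of same-numbered libraries correlated at 0.15, 0.06 and 0.10, each library best with its own number, a hint from the data and not the design, so the numbers were not taken to pair the mice. The cause of these differences was not tested. In the sorted SRSF2-KO experiment the count was 11 with a pseudocount of 10, 0 with the replicate block and 0 to 410 with 1 library left out. In P95H skin it was 126 with no filter, 747 with the replicate block, 270 on the deposited scale and 285 to 3277 with 1 library left out.

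Of 116 genes named, 13 changed sign in some alternative. With equal totals Srsf2 was at 0.016, Hras at 0.084 and Krt5 at 0.067 on the log2 scale. Csf1r was at 0.61 with edgeR and 0.60 with DESeq2. With 1 library left out, Mdm2 ranged between -0.24 and 0.038, Krt1 ranged between -0.18 and 0.38, Krt17 ranged between -0.059 and 0.14, Csf1r ranged between -1.44 and 0.35, Ivl ranged between -0.043 and 0.14, Krt10 ranged between -0.16 and 0.29, Cdon ranged between -0.057 and 0.087, Hras ranged between -0.071 and 0.029, Krt5 ranged between -0.11 and 0.064, Krt6a ranged between -0.17 and 0.16, Epgn ranged between -0.63 and 0.0071 and Btc ranged between -0.15 and 0.23. Depth limits low genes such as Hhip, S100a9 and the LCE family, where a few reads move the value.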
